A study of Mus musculus with 15 samples.

Results

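Bacteroides and Parabacteroides are described here at the level of amplicon sequence variants (ASVs), the exact 16S rRNA gene sequences told apart in stool DNA. All ASVs that the deposited taxonomy placed in either genus, and that had at least 1 count in the 15 libraries, were taken as members. That gave 25 of the 507 ASVs with a count, 18 of Bacteroides and 7 of Parabacteroides, and they held 22.8% of all counts. ASVs were numbered by their total count over all libraries, so ASV2 is the ASV with the next to highest total. The taxonomy named no species for any of the 25, and the table held no sequences, so each is known here by its genus and number alone.

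All mice were Gpr15l-deficient littermates. Gpr15l encodes a peptide made at mucosal surfaces that attracts cells bearing the receptor GPR15. No mice with an intact gene were compared here. Stool came from before and from after a colitis course induced with dextran sulfate sodium (DSS), which injures the colonic epithelium. The GPR15L arm received recombinant human GPR15L by the rectal route and the PBS arm received sterile phosphate-buffered saline as placebo, each day from day 3 to day 9, so the samples from before DSS precede dosing. The groups were GPR15L before DSS (libraries 1 to 3), PBS before DSS (libraries 4 to 6), GPR15L after DSS (libraries 8 to 11) and PBS after DSS (libraries 12 to 15). Library 7 has a title that places it in PBS after DSS and a library name that runs on from those of the samples from before DSS, and it is shown apart. The titles call the mice Gpr15-/- where the series text says Gpr15l-/-. The labels list male mice whereas both sexes are named in the design text.

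Bacteroides and Parabacteroides are anaerobes of the order Bacteroidales that live in the mammalian colon and break down dietary and host polysaccharides. Most bacteria carry several copies of the 16S gene, and copies within a genome can differ, so a strain can give more than 1 ASV, while different strains can share an ASV. A share of reads is relative: it can fall because a bacterium became rarer or because others became more common, and these cannot be told apart here.

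Libraries held 48847 to 197433 counts, and those of PBS after DSS were shallow at 50041 to 67860. Libraries 2, 3, 5, 9, 10 and 11 were of like depth, at 48847 to 68706. An ASV with no count in PBS after DSS could have held up to 0.00128% of the summed counts of that group, taking 3 counts as the limit. Mice were kept 3 to 4 per cage and no cage is given for any library. Cage and arm therefore cannot be told apart, and p-values treat mice as independent that may have shared a cage. The libraries from before and after DSS also carry separate series of library names, so the time of sampling and the library series cannot be told apart. Different mouse numbers were used at the 2 times. The comparisons below share groups of libraries and are not independent of each other.

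The genus total of Bacteroides was high and variable in every group. It held 31.3%, 11.7% and 6.27% of all counts in GPR15L before DSS and 18.2%, 26.0% and 6.00% in PBS before DSS. After DSS it held 25.5%, 12.9%, 35.1% and 37.5% in the GPR15L arm and 30.9%, 29.8%, 6.82% and 27.3% in the PBS arm. Bacteroides was the genus or lowest named rank with the most counts in 3 of 4 libraries of each arm after DSS, and the ranges of all groups overlapped. The means were 16.4% ± 13.2 (SD, n = 3), 16.8% ± 10.1 (n = 3), 27.8% ± 11.2 (n = 4) and 23.7% ± 11.4 (n = 4) in the same order. Without library 1 the mean of GPR15L before DSS was 9.00%.

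No comparison of the Bacteroides total passed an adjusted p of 0.05 in edgeR's quasi-likelihood test. The log2 difference of GPR15L over PBS was 0.43 ± 0.78 (SE) after DSS (edgeR adjusted p = 0.865, with 14.1% of all 78 genera or ranks passing). It was 0.40 ± 0.90 before DSS (edgeR adjusted p = 0.885), where 0 genera passed. The change from before to after DSS was 0.68 ± 0.85 in the PBS arm (edgeR adjusted p = 0.645, 5.13% of genera passing) and 0.70 ± 0.85 in the GPR15L arm (edgeR adjusted p = 0.715, 10.3% passing). The standard errors of these log2 values were all larger than the differences, so changes of either sign are within reach of these samples.

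**Figure D1:**
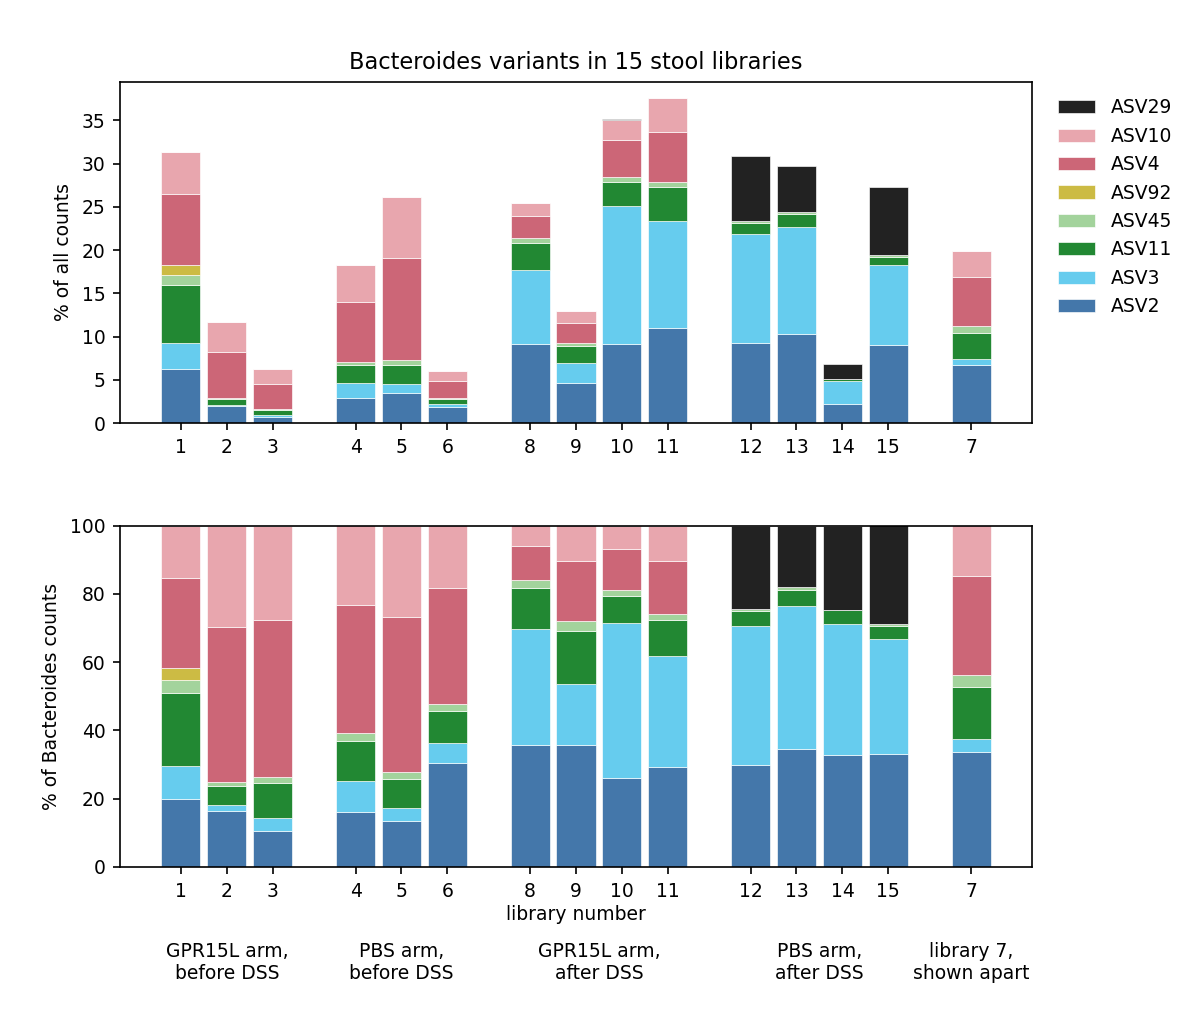
Bacteroides ASVs by library, as percent of all counts (upper panel) and percent of Bacteroides counts (lower panel), with library 7 at the right and colours for ASVs. ASV4 and ASV10 are present in every library except the 4 of PBS after DSS, where ASV29 holds 18.0% to 29.0% of the genus.

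Below the genus total, its make-up differed between groups. Before DSS, ASV4 was the most abundant Bacteroides ASV in all 6 libraries, 3 of each arm. After DSS, ASV3 led in 4 of 4 libraries of the PBS arm, while ASV2 and ASV3 led in 2 each of the GPR15L arm. The leading ASV held a like part of the genus throughout: on average 39.2% ± 11.1 (SD, n = 3), 38.8% ± 5.81 (n = 3), 37.4% ± 5.47 (n = 4) and 38.7% ± 3.66 (n = 4) of Bacteroides counts in GPR15L before, PBS before, GPR15L after and PBS after DSS. The effective number of Bacteroides ASVs (the inverse Simpson index, the number of equally common ASVs that would give the same evenness) was 3.15 ± 0.0822 (SD, n = 4) in PBS after DSS. It was 3.91 ± 0.491 (n = 4) in GPR15L after DSS, 3.86 ± 1.22 (n = 3) in GPR15L before DSS and 3.78 ± 0.432 (n = 3) in PBS before DSS.

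In the PBS arm, ASV4 and ASV10 were present in every library before DSS and had no count in any library after it, and ASV29 had the opposite pattern. ASV4 held 6.83%, 11.8% and 2.03% of all counts before DSS and 0 in all 4 libraries after it. ASV10 held 4.28%, 7.00% and 1.10% before and likewise 0 after. ASV29 had no count in the 3 libraries from before DSS and held 7.50%, 5.36%, 1.69% and 7.93% afterwards. Groups were fully separated for all 3 ASVs.

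ASV4 and ASV10 fell and ASV29 rose in edgeR's quasi-likelihood test of the PBS arm. For size, the mean share of the group with counts was divided by the limit of 3 counts over the group at 0. Such a multiple leaves out the spread of that mean and is no lower limit of the change. It came to 5354 for ASV4 (edgeR adjusted p = 2.96e-05) and 3213 for ASV10 (edgeR adjusted p = 3.47e-05). For ASV29 the multiple came to 6445 (edgeR adjusted p = 0.00935). No other member passed, so these were 3, or 27.3%, of the 11 members with enough counts for a test. Of all 282 ASVs tested, 4.26% passed in this comparison. In shares of all counts 5 members did not overlap between the times in this arm (ASV3, ASV4, ASV10, ASV26 and ASV29), against 17.7% of all ASVs tested. The mean shares of ASV4 and ASV10 before DSS, 6.88% ± 4.87 and 4.13% ± 2.95 (SD, n = 3), were 4.43% and 2.69% without library 5.

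The calls for ASV4 and ASV10 depend on where library 7 belongs. It held 5.73% ASV4 and 2.94% ASV10 and no ASV29. When it was counted as PBS after DSS, as titled, the edgeR adjusted p of the PBS arm's change rose to 0.505 for ASV4 and 0.469 for ASV10. Over all alternatives the adjusted p of that change ran from 4.31e-24 to 0.505 for ASV4, from 6.19e-22 to 0.469 for ASV10 and from 3.31e-09 to 0.0493 for ASV29.

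ASV4 and ASV10 were still found after DSS in every library of the GPR15L arm. ASV4 held 8.25%, 5.32% and 2.88% of all counts before DSS and 2.56%, 2.27%, 4.25% and 5.85% after it. ASV10 held 4.79%, 3.48% and 1.73% before and 1.52%, 1.36%, 2.40% and 3.88% after. The ranges overlapped for both. The log2 change was -0.47 ± 0.84 (SE) for ASV4 (edgeR adjusted p = 0.749) and -0.43 ± 0.88 for ASV10 (edgeR adjusted p = 0.774). ASV29, absent from all libraries before DSS, was found in libraries 10 and 11 only, with 22 and 11 counts (0.0351% and 0.0206% of all counts).

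**Figure D2:**
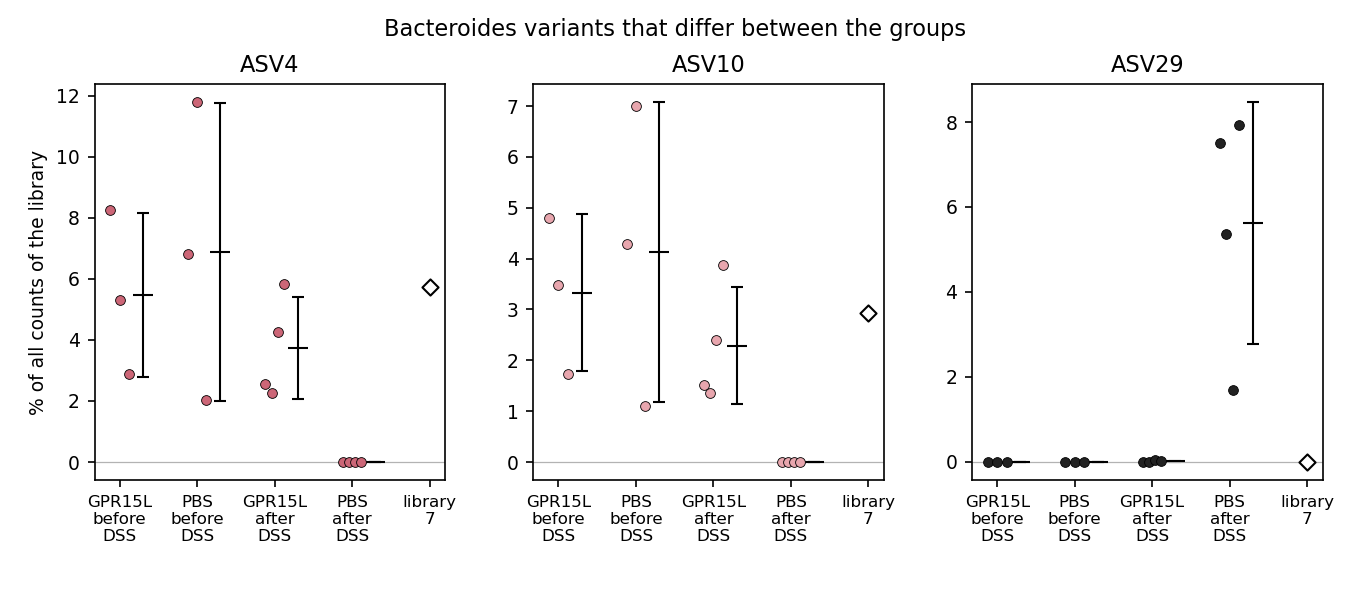
Percent of all counts held by ASV4, ASV10 and ASV29 in each library by group, with the mean and SD beside the points and library 7 as an open diamond; each panel has its own linear axis. In PBS after DSS, ASV4 and ASV10 are at 0 and ASV29 lies between 1.69% and 7.93%.

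After DSS the arms were therefore separated by the same ASVs. ASV4 averaged 3.73% ± 1.66 (SD, n = 4) in the GPR15L arm, 2905 times the limit of 3 counts over the PBS arm (edgeR adjusted p = 3.51e-05). ASV10 averaged 2.29% ± 1.16 (n = 4), 1783 times that limit (edgeR adjusted p = 4.04e-05). These multiples too leave out the spread of the means and are no lower limits. ASV29 averaged 0.0139% ± 0.0171 in the GPR15L arm (0.00686% without library 10) and 5.62% ± 2.85 in the PBS arm (n = 4 each), and its log2 difference was -8.15 ± 1.91 (SE, edgeR adjusted p = 0.0141). With library 7 counted as PBS after DSS the edgeR adjusted p was 0.517 for ASV4 and 0.423 for ASV10. The range over all alternatives was 1.18e-23 to 0.517 for ASV4, 7.17e-22 to 0.423 for ASV10 and 6.15e-06 to 0.0397 for ASV29.

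In this comparison 3 of 11 tested members passed, or 27.3%, against 28.0% of all ASVs tested. The share of members called was thus near that of all ASVs tested. ASV84 and ASV92, at 0 in both arms after DSS, could not pass but are counted among the 11. Members' median log2 difference was 0.44, against 0.00 over all ASVs tested. In shares of all counts, 5 members did not overlap between the arms (ASV4, ASV10, ASV11, ASV29 and ASV45), against 30.9% of all ASVs tested.

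ASV29 in the PBS arm took up about the part of the genus that ASV4 and ASV10 together held in the GPR15L arm after DSS. ASV4 and ASV10 summed to 16.0%, 28.1%, 18.9% and 25.9% of Bacteroides counts in GPR15L after DSS. ASV29 held 24.3%, 18.0%, 24.7% and 29.0% in PBS after DSS. The ranges overlapped, and the sums of all 3 ASVs averaged 22.3% ± 5.69 and 24.0% ± 4.54 of the genus (SD, n = 4 each). As shares of all counts the 3 summed to 6.04% ± 2.82 with GPR15L and 5.62% ± 2.85 with PBS. This sum was chosen after the values were seen and has no test.

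Before DSS the arms had the same leading Bacteroides ASVs. No member passed the threshold, against 1.77% of all ASVs tested, and 1 member, ASV92, had an unadjusted p under 0.05 in edgeR. ASV29, at 0 in both arms before DSS, could not pass. The log2 difference between the arms was -0.01 ± 0.90 (SE) for ASV4 (edgeR adjusted p = 1.00) and 0.00 ± 0.94 for ASV10 (edgeR adjusted p = 1.00). No tested member was separated between the arms before DSS, against 10.3% of all ASVs tested. ASV4 and ASV10 together made up 41.7%, 75.0% and 73.6% of Bacteroides counts in the GPR15L arm and 60.9%, 72.1% and 52.2% in the PBS arm.

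The interaction term asks whether the change over the DSS course differed between the arms. It passed for ASV4 (log2 14.98, edgeR adjusted p = 0.000271) and ASV10 (log2 14.26, edgeR adjusted p = 0.000310), 2 of 11 tested members, against 9.93% of all ASVs tested. The log2 values are no measure of size, because both ASVs are at 0 in PBS after DSS. With library 7 as titled the edgeR adjusted p was 0.909 for ASV4 and 0.832 for ASV10, and over all alternatives it ran from 2.17e-15 to 0.909 and from 5.61e-14 to 0.832. ASV29 was at 0 in both arms before DSS, and ASV84 and ASV92 were at 0 in both arms after it. The interaction has no usable value for these ASVs, which could not pass but are counted among the 11.

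ASV4 and ASV10 kept a nearly fixed ratio wherever they occurred. The count of ASV4 over that of ASV10 lay between 1.51 (library 11) and 1.95 (library 7) with a median of 1.68 over 11 libraries. The highest ratio was 1.30 times the lowest, while the share of ASV4 itself ran from 2.03% to 11.8% of all counts in the same libraries. ASV11 and ASV45 formed another such pair, with ratios of 4.00 (library 5) to 6.84 (library 12), a median of 5.36 and a highest over lowest of 1.71 over 14 libraries. In library 14, which had 186 counts of ASV11, ASV45 had none, where the median ratio would give 34.7 counts.

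Other pairs varied far more. Of the 16 pairs of members found together in at least 10 libraries, the next most even was ASV4 with ASV11, whose highest ratio was 9.34 times the lowest. ASV2 over ASV3 ran from 0.578 to 9.89, a span of 17.1 times, and ASV26 over ASV56 in Parabacteroides spanned 63.3 times. In the other named genera, 29 pairs met the same rule for libraries, and their spans ran from 3.81 to 878 times with a median of 57.4. None was as even as either Bacteroides pair. The pairs were picked for their evenness, so these values are a description.

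**Figure D3:**
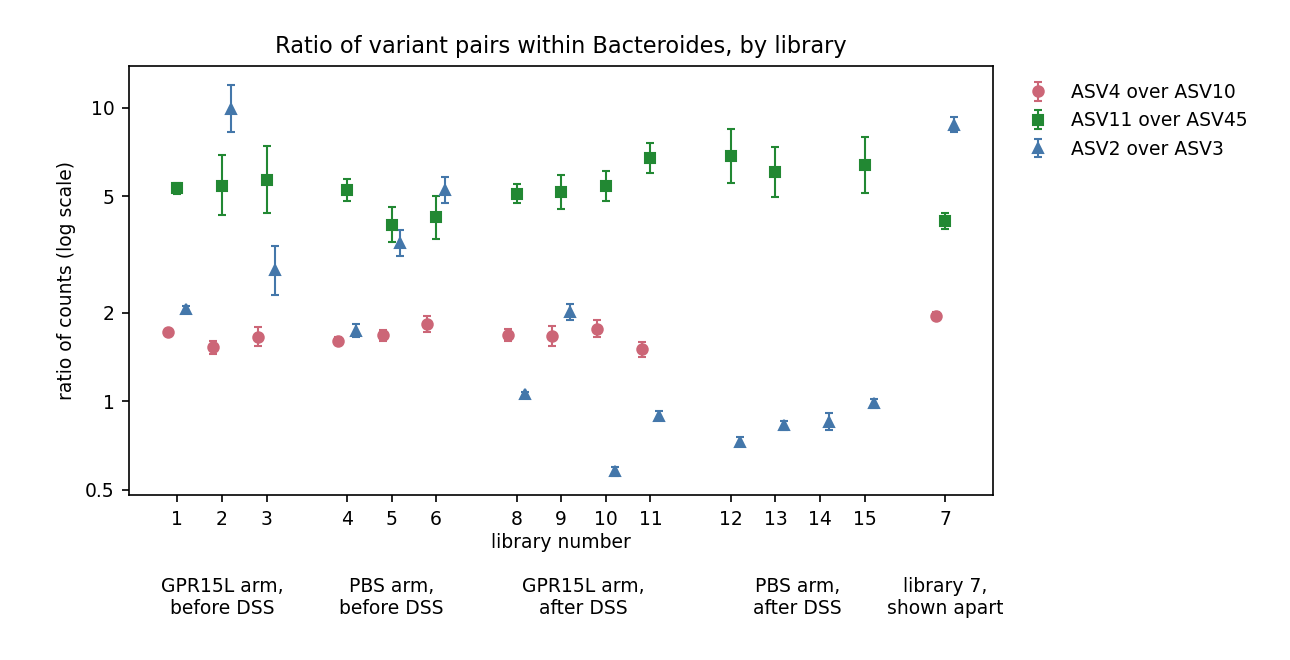
Ratio of counts of ASV4 over ASV10, ASV11 over ASV45 and ASV2 over ASV3 in each library on a log axis, with 95% intervals that cover counting error only. ASV4 over ASV10 stays between 1.51 and 1.95 while ASV2 over ASV3 runs from 0.578 to 9.89; a point is missing where an ASV of the pair has no count.

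ASV2 and ASV3 made up most of Bacteroides after DSS in both arms. Together they held 29.7%, 18.1% and 14.3% of Bacteroides counts in GPR15L before DSS and 25.2%, 17.5% and 36.2% in PBS before DSS. After DSS they held 69.6%, 53.6%, 71.5% and 61.9% in the GPR15L arm and 70.7%, 76.3%, 71.2% and 66.8% in the PBS arm. Every library from after DSS was above every library from before it. This holds for a sum chosen after the values were seen, and it has no test.

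Of the pair, ASV3 had the larger difference between the times. It held 3.04%, 0.195% and 0.236% of all counts in GPR15L before DSS and 8.62%, 2.30%, 15.9% and 12.3% after, with a log2 difference of 3.00 ± 1.21 (SE, edgeR adjusted p = 0.0673). It held 1.67%, 1.02% and 0.349% in PBS before DSS and 12.6%, 12.4%, 2.62% and 9.18% after, with a log2 difference of 3.34 ± 1.23 (edgeR adjusted p = 0.0900). Neither passed the threshold. The groups did not overlap in the PBS arm, and in the GPR15L arm library 1 lay above library 9. Without library 1 the GPR15L arm's log2 difference was 5.81 and passed (edgeR adjusted p = 0.0181). Over all alternatives the adjusted p ran from 0.0181 to 0.183 in the GPR15L arm and from 0.0388 to 0.230 in the PBS arm.

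ASV2 overlapped between the times in both arms. It held 6.26%, 1.93% and 0.658% of all counts in GPR15L before DSS and 9.11%, 4.63%, 9.19% and 11.0% after. It held 2.91%, 3.53% and 1.82% in PBS before DSS and 9.21%, 10.3%, 2.24% and 9.06% after. The log2 differences were 1.48 ± 0.92 (SE, edgeR adjusted p = 0.216) in the GPR15L arm and 1.46 ± 0.92 (edgeR adjusted p = 0.319) in the PBS arm. Without library 1 the GPR15L arm's value was 3.12 (edgeR adjusted p = 0.0496, in a range of 0.0496 to 0.576 over all alternatives).

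Between the arms after DSS, neither ASV2 nor ASV3 passed. The log2 difference of GPR15L over PBS was 0.44 ± 0.82 (SE) for ASV2 (edgeR adjusted p = 0.819) and 0.46 ± 1.00 for ASV3 (edgeR adjusted p = 0.874). The shares of all counts overlapped for both. The Bacteroides counts that remained beside ASV4, ASV10 and ASV29 were thus mostly of the same ASVs in both arms.

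ASV11 and ASV45, the other pair of fixed ratio, were separated between the arms after DSS without passing the test. ASV11 held 3.05%, 1.99%, 2.81% and 3.95% of all counts in the GPR15L arm and 1.34%, 1.44%, 0.274% and 0.997% in the PBS arm. ASV45 held 0.598%, 0.386%, 0.520% and 0.588% in the GPR15L arm and 0.196%, 0.240%, 0 and 0.157% in the PBS arm. Every library of the GPR15L arm was above every library of the PBS arm for both. The log2 difference was 1.80 ± 0.96 (SE, edgeR adjusted p = 0.166) for ASV11 and 2.03 ± 1.35 (edgeR adjusted p = 0.274) for ASV45. For ASV11 it passed when the 2 groups were fitted alone (2.24, edgeR adjusted p = 0.0264) and without library 4 (2.85, edgeR adjusted p = 0.0495), with a range of 0.0264 to 0.401 over all alternatives.

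ASV92 was nearly confined to 1 library. It had 2156 counts (1.09% of all counts) in library 1, 0.00957% in library 3 and 0.00301% in library 6, and none elsewhere. Only libraries from before DSS gave ASV92 enough counts for a test, so over the course only a fall could be called. Its fall over the DSS course in the GPR15L arm was called (edgeR adjusted p = 0.0454). Its mean in GPR15L before DSS came to 403 times the limit of 3 counts over that arm's libraries from after DSS. Without library 1 its mean in GPR15L before DSS was 0.00478% in place of 0.367%, and it no longer had counts in enough libraries to be tested. The call was kept in 13 of the 19 alternatives that gave an adjusted p, with values from 0.000196 to 0.0861.

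In the GPR15L arm, 3 of 11 tested members passed over the DSS course, or 27.3%, against 28.4% of all ASVs tested. They were ASV92, the Parabacteroides ASV84 and ASV29, which rose (edgeR adjusted p = 0.0484). The log2 value of ASV29, 7.05 ± 2.31 (SE), is no measure of size, because ASV29 is at 0 in this arm before DSS. The mean of ASV29 after DSS came to 15 times the limit of 3 counts over that arm's libraries from before DSS. That rise rests on the counts of libraries 10 and 11. It was kept in 7 of 23 alternatives, with edgeR adjusted p-values and those of the other tools between 0.00154 and 0.110. The number of members called in this arm was 0 when any 1 of libraries 3, 5, 8, 9, 10, 11 or 12 was left out, and 1 without library 2, 14 or 15. No tested member was separated between the times in shares of all counts in this arm, against 29.4% of all ASVs tested.

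Members were also compared as shares of Bacteroides or Parabacteroides counts. Over the DSS course 6 of 11 did not overlap in the PBS arm (ASV3, ASV4, ASV10, ASV11, ASV29 and ASV45), against 20.7% of ASVs measured as a share of their own genus or rank. For the GPR15L arm this was 4 of 11 (ASV2, ASV3, ASV4 and ASV10), against 36.5%. Between the arms after DSS there were 5 (36.5% of ASVs), and before DSS 0 (13.7%), the same numbers as for shares of all counts. ASV4 and ASV10 together averaged 63.4% ± 18.8 (SD, n = 3) of Bacteroides counts before and 22.2% ± 5.69 (n = 4) after DSS in the GPR15L arm, with no overlap and no test of this sum.

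Bray-Curtis distances between the Bacteroides make-up of libraries, from 0 for the same ASV shares to 1 for none in common, put these patterns on 1 scale. The distance between a PBS library from before and one from after DSS was 0.581 to 0.785, with a median of 0.702. For the GPR15L arm it was 0.239 to 0.590, with a median of 0.475. Within GPR15L before DSS it was 0.0803 to 0.334, which overlapped that range, and within PBS before DSS 0.111 to 0.199. Within PBS after DSS it was 0.0349 to 0.110, so these 4 libraries were alike, including library 14, which had much less Bacteroides. Within GPR15L after DSS it was 0.0998 to 0.276, and between the arms after DSS 0.259 to 0.474.

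Library 7 lay far from the group its title names. Its Bacteroides make-up was at a distance of 0.569 to 0.614 from the PBS libraries after DSS, 0.105 to 0.284 from PBS before DSS, 0.162 to 0.313 from GPR15L before DSS and 0.164 to 0.416 from GPR15L after DSS. ASV4 and ASV10 made up 43.7% of its Bacteroides counts and ASV2 with ASV3 made up 37.4%. Its leading ASV was ASV2 (33.6% of the genus).

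Replacement was also described by the part of a genus held by ASVs with no count in the other group. In the PBS arm, 62.4% of Bacteroides counts before DSS belonged to ASVs with no count after it, and 24.1% of counts after DSS to ASVs with no count before it. Among the 25 other genera or ranks measured in the same way the medians were 4.68% and 0.784%, and 3 and 1 of them had higher values. With library 7 as titled, the parts in the PBS arm were 0.00796% and 14.8%. Library 7 holds ASV4 and ASV10, which bears on the first value. Its Bacteroides counts include no ASV29, which bears on the second. For the GPR15L arm they were 2.95% and 0.0456%, against medians of 24.1% and 0.638% in 23 others. The 2.95% was 0.0834% without library 1, which held nearly all counts of ASV92, and the 0.0456% was 0.0746% without library 8 and 0.0244% without library 10. These parts also depend on the depth of the groups, and they have no test.

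Parabacteroides was the smaller genus, with lower mean shares after DSS in both arms when library 7 is left aside. It held 2.67%, 1.53% and 0.748% of all counts in GPR15L before DSS and 0.625%, 0.192%, 0.494% and 0.992% after. It held 1.88%, 1.37% and 1.13% in PBS before DSS and 0.867%, 0.691%, 0.146% and 0.965% after. The groups did not overlap in the PBS arm, and in the GPR15L arm library 11 lay above library 3. The means were 1.65% ± 0.964 and 0.576% ± 0.331 in the GPR15L arm and 1.46% ± 0.384 and 0.667% ± 0.365 in the PBS arm (SD, n = 3 and 4). Library 7 held 3.76%, more than any other library, and with it as titled the mean of PBS after DSS was 1.29% and the PBS groups overlapped.

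No comparison of the Parabacteroides total passed. The log2 difference over the DSS course was -1.59 ± 0.81 (SE, edgeR adjusted p = 0.187) in the GPR15L arm and -0.90 ± 0.81 (edgeR adjusted p = 0.512) in the PBS arm. Between the arms it was 0.01 ± 0.75 after DSS (edgeR adjusted p = 1.00) and 0.70 ± 0.87 before (edgeR adjusted p = 0.725). The interaction was -0.69 ± 1.15 for Parabacteroides (edgeR adjusted p = 0.875) and 0.02 ± 1.19 for Bacteroides (edgeR adjusted p = 1.00), with 3.85% of genera passing.

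**Figure D4:**
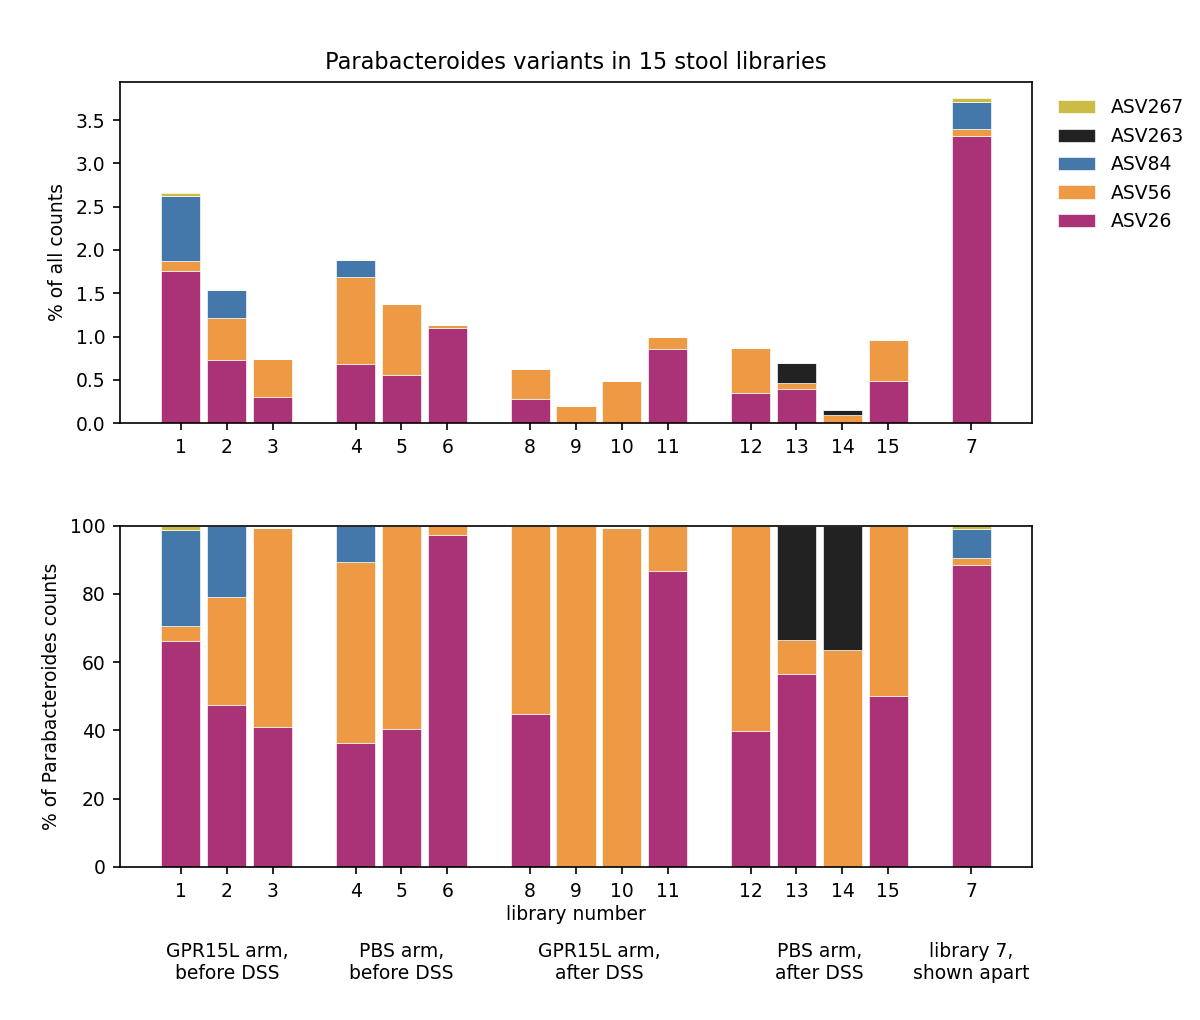
Parabacteroides ASVs by library, as percent of all counts (upper panel) and percent of Parabacteroides counts (lower panel), with library 7 at the right. ASV26 and ASV56 share most libraries, ASV84 is seen only in libraries 1, 2, 4 and 7, and ASV263 only in libraries 13 and 14.

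Within Parabacteroides, ASV26 and ASV56 alternated as the leading ASV from library to library in every group. ASV26 led in 2 of 3, 1 of 3, 1 of 4 and 2 of 4 libraries of GPR15L before, PBS before, GPR15L after and PBS after DSS, and ASV56 in the others. The leading ASV held from 47.3% (library 2) to 100% (library 9) of the genus. ASV26 held 0.280%, 0, 0 and 0.861% of all counts in GPR15L after DSS, and ASV56 held 0.346%, 0.192%, 0.491% and 0.131%. Neither passed the threshold in any of the 5 comparisons.

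ASV84 was seen in 3 libraries from before DSS and in library 7. It held 0.748% and 0.320% of all counts in libraries 1 and 2, 0.202% in library 4 and 0.314% in library 7, and it had no count in the 8 libraries from after DSS. Its mean in GPR15L before DSS came to 391 times the limit of 3 counts over that arm's libraries from after DSS. Only libraries from before DSS gave ASV84 enough counts for a test, so over the course only a fall could be called. Its fall in the GPR15L arm was called (edgeR adjusted p = 0.0484). It was kept in 10 of the 20 alternatives that tested it, with adjusted p-values of the tools between 1.67e-08 and 0.0934, and without library 1, 2 or 4 it was not tested. The mean of GPR15L before DSS was 0.356%, and 0.160% without library 1.

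In the PBS arm the mean of ASV84 before DSS came to 52 times the limit of 3 counts after it. ASV84 did not pass there (edgeR adjusted p = 0.121). It passed there with DESeq2 (adjusted p = 3.91e-06) and without the filter on counts in edgeR (adjusted p = 0.0162). Over all alternatives the adjusted p of edgeR and the other tools ran from 3.91e-06 to 1.00. Before DSS it was absent from 1 of 3 libraries of the GPR15L arm and from 2 of 3 of the PBS arm.

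Of the 14 members with too few libraries or counts for a test, 2 had over 100 counts, both of Parabacteroides. ASV263 had counts only in libraries 13 and 14 of PBS after DSS, where it was 33.5% and 36.4% of the genus. ASV267 had counts only in library 1 (0.0375% of all counts) and library 7 (0.0430%). The other 12, 10 of Bacteroides and 2 of Parabacteroides, were each found in 1 library with 2 to 8 counts, 46 counts in all.

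The other families of Bacteroidales had the following calls, with no test of a difference between families. Between the arms after DSS, Muribaculaceae, a family of mouse gut polysaccharide degraders, had 2 ASVs higher and 9 lower in the GPR15L arm of 42 tested, against 28.0% of all ASVs called. Rikenellaceae (5 tested), Prevotellaceae (1) and Marinifilaceae (1) had none called there. Over the DSS course in the PBS arm, 1 Muribaculaceae ASV rose and 2 fell (4.26% of all ASVs called) and the other 3 families had none. In the GPR15L arm 1 Muribaculaceae ASV rose and 22 fell, 2 of Rikenellaceae fell and the Marinifilaceae ASV rose (28.4% of all ASVs called). Muribaculaceae held 47.1% ± 17.1 of all counts in GPR15L before DSS and 12.8% ± 1.86 in PBS before DSS (SD, n = 3 each), and these groups did not overlap. What part the other families had in the values of Bacteroides was not tested.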

How the data were processed

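Per the labels' protocols, the V4 part of the 16S rRNA gene in stool DNA went through 25 PCR cycles and MiSeq sequencing. The authors deposited whole-number counts per ASV and library, not normalized. The table's name mentions DADA2. The version used and the source of the taxonomy were not given in the sources used here. The submitters' processing notes list R 4.5.1 and limma with no role. The table held 3697 ASVs, 3190 of them at 0 in all libraries.

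Groups followed the labels, with library 7 in no comparison. No 2 libraries of the same group were alike within sampling noise (chi-square per degree of freedom at least 35.2 over 18 pairs within groups). Pairs across groups or with library 7 are not covered by this check. ASVs were kept when their counts summed to 10 or more and 3 or more of 14 libraries had a count (282 ASVs, 11 of them members, and 78 genera or lowest named ranks). Of these members, ASV29, ASV84 and ASV92 met the rule through libraries of 1 time alone. Only 1 direction of change over the DSS course was therefore open to each. The quasi-likelihood test of edgeR 4.0.16 (default form, R 4.3.3) was run with TMMwsp scaling and 1 mean per group, with Benjamini-Hochberg adjustment over all ASVs, or all genera, at 0.05. SEs were back-calculated from the test's F. The scripts were tested on simulated data. Intervals and limits from 3 counts cover counting error only, since PCR reads are not independent molecules.

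The fits were repeated with TMM or library totals for scaling, with DESeq2 1.42.0 (poscounts), voom of limma 3.58.1 and the newer quasi-likelihood form of edgeR, without the filter or keeping mean shares from 0.1%, with only the compared groups, with library 7 as titled, and without each library in turn. The parts of Bacteroides held by ASVs absent from the other group were repeated with library 7 as titled and without each library, which was added after the data were seen. Members described singly passed the threshold in a comparison or held at least 1% of their genus in a library; the members and lists were chosen with earlier results of these data known.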

Additional observations from a re-analysis of the deposited data

Results flagged for a closer look

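In PBS after DSS, library 14 stood apart. Bacteroides held 6.82% of its counts, against 27.3% to 30.9% in the other 3 libraries of the group, a gap of 0.851 of the group's range. ASV2 held 2.24% there against 9.06% to 10.3%, a gap of 0.846. Of 29 groups of values examined, 2 had a library this far apart, and chance gives about 1 in 20. All were from after DSS, since the rule has no limit for groups of 3 libraries. The 2 flags are not independent, because ASV2 is part of the Bacteroides total. The make-up of its Bacteroides was like that of the other libraries of the group.

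The change over the DSS course differed between the arms for ASV4 (log2 14.98) and ASV10 (log2 14.26) by the interaction test, values which bound nothing because 1 group is at 0.

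Library 7, in no comparison, held members above their highest level in PBS after DSS, the group of its title. ASV4 held 5.73% and ASV10 2.94% of its counts, where that group had none. ASV11 held 3.01% (highest in the group 1.44%), ASV26 3.32% (0.484%) and ASV45 0.733% (0.240%). ASV84 held 0.314% and ASV267 0.0430%, both at 0 in that group.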

How the results depend on the processing

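The calls for ASV4 and ASV10 after DSS, in the PBS arm and in the interaction kept their direction and threshold under each alternative except library 7 as titled, and those for ASV29 after DSS and in the PBS arm under all 23. With library 7 as titled the number of members called was 1 after DSS, 1 in the PBS arm, 1 in the GPR15L arm and 0 in the interaction. In the PBS arm it was 5 with DESeq2 and 5 without the count filter, against 3. In the GPR15L arm it was 0 to 2 when 1 library was left out, against 3. Without library 1 the members called there were ASV2 and ASV3, neither of which is among those 3. For these counts the cause was not tested beyond the libraries named with each ASV.

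Differences that had not passed changed sign under some settings. The Parabacteroides total after DSS was -0.10 with TMM, -0.21 with total counts, -0.18 with voom, -0.01 with the share filter and -0.47 with library 7 (-0.55 to 0.37 with 1 library left out). The Bacteroides total was -0.03 before DSS with total counts (-0.35 to 1.30 with 1 left out), and in the GPR15L arm -0.17 without the filter and -0.14 with 2 groups alone (-0.14 to 1.46). Its interaction was -0.12 with DESeq2, -0.24 with voom, -0.86 without the filter and -0.01 with the share filter (-0.87 to 0.78). ASV3 after DSS was -0.05 with TMM (-0.06 to 1.46). ASV4 before DSS was 0.10 with DESeq2 and 0.33 without the filter (-0.72 to 0.64). In the GPR15L arm with 2 groups alone ASV4 was 0.31 (-0.94 to 0.23) and ASV10 0.37 (-0.99 to 0.28). ASV84 in the PBS arm was 0.35 with library 7. The cause was not tested.

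The median log2 difference of all genera before DSS was -0.54, and -1.13 with total counts. In the PBS arm it was -0.56, and -0.99 with TMM. No paired analysis was run. The title numbers run from 1 to 15, 1 per library, and do not show which libraries came from the same mouse.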

Other observations

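Among tested ASVs outside both genera, the shares of ASV4 and ASV10 ran most closely with ASV34 and ASV7 (Turicimonas; Spearman rho 0.81 and 0.80 for each over 14 libraries). The share of ASV29 ran most closely with ASV245 (Ruminococcus, rho 0.88). The Parabacteroides total ran with Lactobacillus (rho 0.76), and the Bacteroides total had no neighbour above Prevotellaceae_UCG-001 (rho 0.50). The libraries share their groups, so these are descriptions with no test.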
